A study of Mus musculus with 24 samples.

Results

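The RNA levels of 8 genes of the integrated stress response were followed through 8 conditions of mouse embryonic fibroblasts (MEFs) that lack increasing numbers of the enzymes that methylate lysine 9 of histone H3 (H3K9). The genes were chosen by symbol, with earlier results of these data known: *Atf4*, *Atf3*, *Ddit3*, *Trib3*, *Ppp1r15a*, *Asns*, *Chac1* and *Sesn2*. Each has 1 row among the 47937 genes of the count table, and each of the 8 is among the 18565 genes that passed the filter on low counts and were tested. The table holds 24 libraries of total RNA, 3 biological replicates per condition. WT cells are a clone with a floxed, still functional *Eset1* (*Setdb1*) gene and a Cre recombinase that 4-hydroxytamoxifen (4-OHT) activates, kept without 4-OHT. *E1* is the same clone after 1 µM 4-OHT for 2 days and 2 days in normal medium, which removes exons 15 and 16 of *Eset1*. *E2* is a clone derived from it that was also mutated in *Eset2* (*Setdb2*), without 4-OHT, and *E1E2* is that clone after 4-OHT. In the first series of compound mutants, *E1 S1S2* lacks *Eset1*, *Suv39h1* and *Suv39h2*, and *6KO1*, derived from it, also lacks *Eset2*, *G9a* (*Ehmt2*) and *Glp* (*Ehmt1*). In the second series, *E1E2 G9Gl* lacks *Eset1*, *Eset2*, *G9a* and *Glp*, and *6KO2*, derived from it, also lacks *Suv39h1* and *Suv39h2*. Compound mutants were sequenced after 4-OHT. All genes but *Eset1* were disrupted with CRISPR/Cas9. Every line is 1 clone, the Cre construct uses the general CAGGS promoter, and the CRISPR lines received the construct a second time and were kept in puromycin, so genotype and clone cannot be told apart here, nor can the loss of *Eset1* and exposure to 4-OHT.

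In the integrated stress response, kinases that sense amino acid shortage, misfolded protein in the endoplasmic reticulum (ER), double-stranded RNA or haem shortage phosphorylate the translation initiation factor eIF2alpha. General translation then falls, while translation of the *Atf4* mRNA rises, so that the level of its RNA and of its protein need not move together. ATF4 pairs with other bZIP proteins and binds a composite element, the C/EBP-ATF response element, in genes for amino acid synthesis and transport, redox balance and cell death. The 8 genes cover the steps of this pathway. *Atf4* encodes the central factor, and *Atf3* and *Ddit3* (CHOP) encode bZIP factors that act after it. *Trib3*, a pseudokinase, and *Ppp1r15a* (GADD34), which brings a phosphatase to eIF2alpha, dampen the response. *Asns* (asparagine synthetase), *Chac1* (a glutathione-degrading enzyme) and *Sesn2* (sestrin 2, a leucine sensor that restrains mTORC1) are effector genes. Only RNA was measured.

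The promoters of the 8 genes were searched for 3 motifs of this pathway, from 250 bases before to 50 bases after the gene start in RefSeq (GRCm38.p6), and all 8 had an entry. Each gene had 1 such entry, and positions of matches are counted from that RefSeq start. The gene coordinates given further on are from GENCODE and can have another start. Against them, the *Atf3* and *Asns* matches lie inside the gene and the *Trib3* match lies before its start. The core of the C/EBP-ATF response element, TGATGNAA on either strand, is present in 3.97% of the 32851 promoters of the table and in those of *Atf3*, *Chac1*, *Trib3* and *Asns*. The cyclic AMP response element TGACGTCA is present in 1.79% of all promoters and, among the 8, in that of *Ppp1r15a*. The ER stress response element, CCAAT and CCACG with 9 bases between them, is present in 0.119% of all promoters and in none of the 8, and *Atf4*, *Ddit3* and *Sesn2* held none of the 3 motifs in this window. The 5 matches are shown as found, and RNA levels were not compared by motif. Each is written 5′ to 3′ on the strand of its gene with the match in capitals, and a match that begins with TT is the response element core read on the opposite strand. A match is a description of the letters in this window and not a measured binding site.
*Atf3*, chr1:191183426-191183453, minus strand, match beginning at -110 from the start: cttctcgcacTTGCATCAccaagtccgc
*Chac1*, chr2:119351039-119351066, plus strand, match beginning at -193: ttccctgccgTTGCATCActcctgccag
*Trib3*, chr2:152344029-152344056, minus strand, match beginning 14 bases after the start: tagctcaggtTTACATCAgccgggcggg
*Asns*, chr6:7693215-7693242, minus strand, match beginning at -23: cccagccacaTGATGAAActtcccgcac
*Ppp1r15a*, chr7:45526263-45526290, minus strand, match beginning at -12: gcctctccggTGACGTCAgcacagcgcc

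Between 24737307 and 37419816 counts were assigned per library (median 30218612). The 8 genes had between 286 (*Sesn2*) and 11846 (*Atf4*) raw counts in a library, so none was near the detection limit. Levels are given as normalized counts, that is, counts divided by the TMM-scaled gene total of the library and set to a common total of 25312496. WT replicate 2 stood apart from the other WT libraries, with a chi-square per gene of 68.3 and 57 against them, where the other pairs of replicates gave 2.24 to 25.2. For the 8 genes, results that change without it are given with and without it. The other genes of the pathway and the cell type markers were not recomputed without it. Of the targeted genes, *Setdb1* RNA was lower in *E1* than in WT (log2 fold change -0.57, adjusted p = 6.83e-06, edgeR). *Setdb1* RNA did not separate the libraries labelled *E2* and *E1E2* (0.0072, adjusted p = 0.991, edgeR). *Suv39h2* RNA was higher in the libraries labelled *E1 S1S2* than in WT (0.77). The mutations are an exon deletion in *Eset1* and frameshifts in the CRISPR targets, so RNA counted over a whole gene does not test the loss of its protein. The paper reports western blots in which Suv39h1 and Suv39h2 were absent and *Eset1* deletion was efficient. Conditions are named by their labels. Of the 10 fibroblast markers, *Col1a1* (10750 or more normalized counts) and *Vim* (34180 or more) were abundant in every library, but *Lum* was at 0 to 0.977 normalized counts in all libraries and *Thy1* at 0 to 0.879 in *6KO1*.

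**Figure D1:**
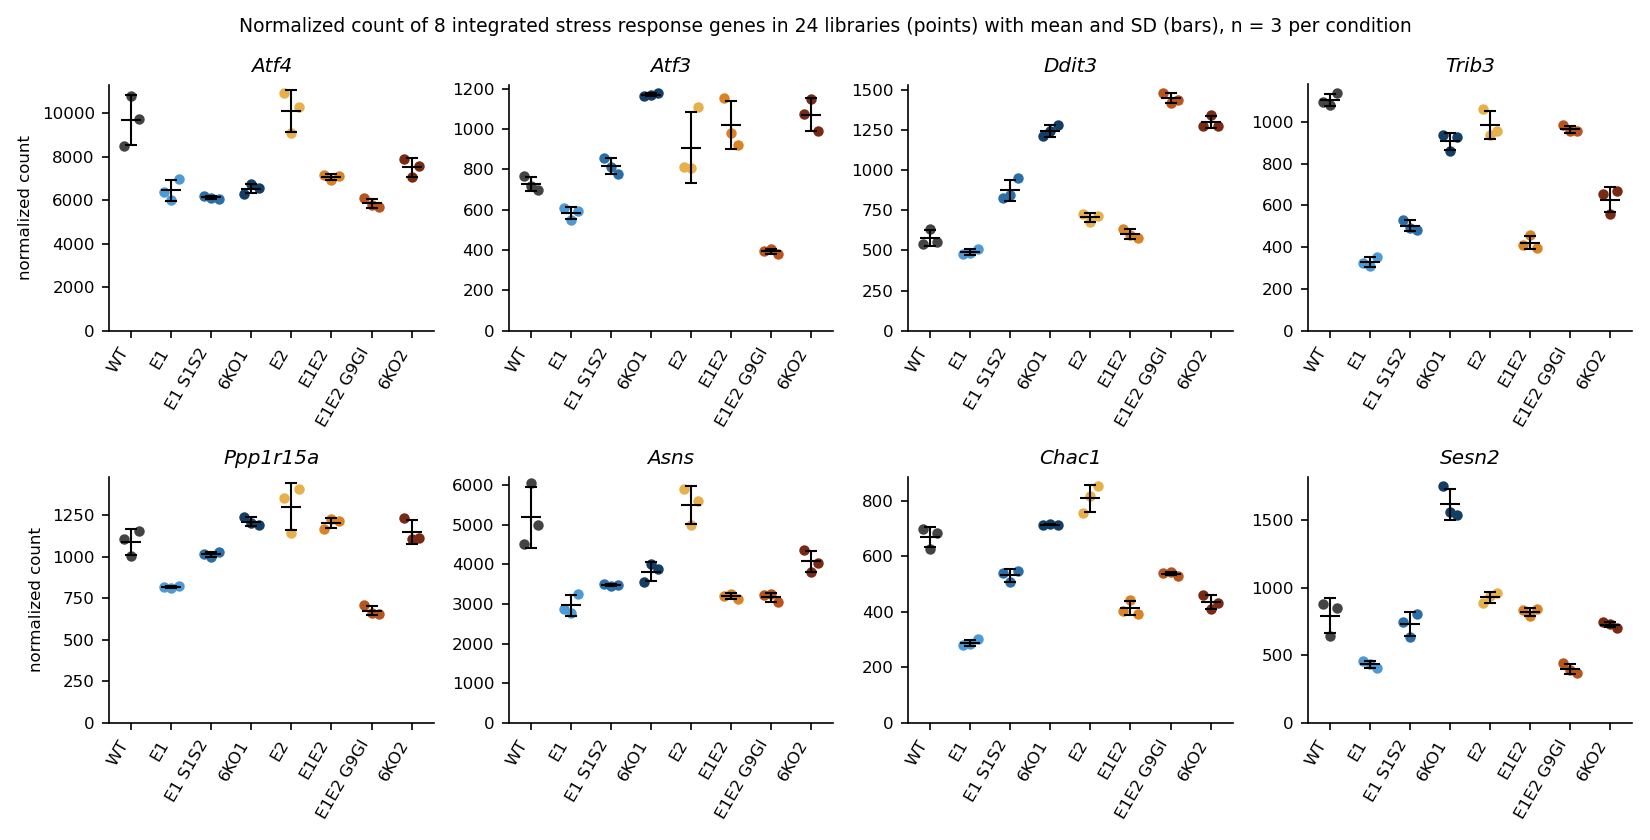
Normalized count (vertical axis, linear from 0) of each of the 8 genes in 24 libraries, by condition (horizontal axis). Points are libraries and bars are the mean and SD of 3. *Trib3* and *Chac1* are lowest in *E1*, *Ddit3* is highest in *E1E2 G9Gl* and both *6KO* lines, and *Sesn2* is highest in *6KO1*, where its libraries reach 1541 to 1751.

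To compare levels between genes, counts were given per kilobase of exon in a library of 1000000 gene counts. On this scale, *Atf4* was the most abundant of the 8 in WT (162) and *Asns* the second (74.8). The other genes lay between 9.02 (*Sesn2*) and 20.5 (*Trib3*).

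A change is called where the log2 fold change is at least 1 in size and the adjusted p at most 0.01, by a two-sided edgeR quasi-likelihood test fitted to all 24 libraries, with Benjamini-Hochberg adjustment over the 18565 genes. "Rose" and "fell" are used for called changes only. With 3 libraries a side, the smallest p of an exact permutation test is 0.1, and significance here depends on the spread estimated across all genes.

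*Atf4* RNA did not rise in any mutant. *Atf4* (ENSMUSG00000042406) lies on chromosome 15 from 80255184 to 80257541 (GRCm38, plus strand). Its normalized counts in WT were 8522, 10817 and 9753, and in *E2* they were 10959, 9081 and 10292, so the 2 sets of untreated libraries overlapped. Every library of the 6 conditions after 4-OHT lay below every WT library, between 5716 and 7921. The log2 fold change of *Atf4* against WT was -0.73 in *E1E2 G9Gl*, -0.66 in *E1 S1S2*, -0.59 in *E1* (SE 0.075, adjusted p = 3.09e-06, edgeR), -0.57 in *6KO1*, -0.46 in *E1E2* and -0.37 in *6KO2*, each with an adjusted p of 0.000189 or less (edgeR) and each short of the fold change minimum. In *E2* it was 0.060 (adjusted p = 0.573, edgeR). From high to low, the mean levels ran *E2*, WT, *6KO2*, *E1E2*, *6KO1*, *E1*, *E1 S1S2* and *E1E2 G9Gl*. In that order the libraries of neighbours overlapped, except between WT and *6KO2* and between *E1E2* and *6KO1*.

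*Atf3* and *Ddit3*, the bZIP factors after ATF4, had opposite changes in *E1E2 G9Gl*, where *Ddit3* rose and *Atf3* was lower than in WT. In the other mutants their log2 fold changes had the same sign, negative in *E1* and positive elsewhere, although that of *Ddit3* in *E1E2* was 0.068 (adjusted p = 0.433, edgeR). *Ddit3* (ENSMUSG00000025408, chromosome 10 from 127290774 to 127296288, plus strand) had 537, 631 and 555 normalized counts in WT. The *E1E2 G9Gl* libraries held 1482, 1420 and 1438, those of *6KO2* held 1276, 1342 and 1276, and those of *6KO1* held 1210, 1242 and 1280. No library of these 3 conditions was below 1210, and no other library of the study was above 948. *Ddit3* rose in all 3, and its log2 fold changes were 1.33 for *E1E2 G9Gl* (adjusted p = 1.52e-14), 1.17 for *6KO2* (adjusted p = 3.1e-13) and 1.11 for *6KO1* (adjusted p = 3.55e-13, all edgeR), each with an SE of 0.065. In *E1 S1S2*, with 827, 848 and 948 counts, it was above every WT library by 0.60 (adjusted p = 4.86e-08, edgeR), short of the fold change minimum. Values in *E1E2* (576 to 634) overlapped those in WT, and those in *E1* (476 to 511) lay just below them (-0.23, adjusted p = 0.0151, edgeR). The 3 conditions with raised *Ddit3* are those in which *G9a* and *Glp* were targeted, and *Ddit3* was higher in *E1E2 G9Gl* than in *6KO2*, whose libraries did not overlap (*6KO2* against *E1E2 G9Gl* -0.16, adjusted p = 0.0377, edgeR). The exons of *Ddit3* overlap by 68 bases those of *Mars*, the methionyl-tRNA synthetase gene on the other strand, and the libraries were stranded, but the strand setting of the counting is not given in the sources used here. Where *Ddit3* rose, *Mars* had log2 fold changes against WT of -1.19 (*6KO1*), -0.57 (*6KO2*) and -0.46 (*E1E2 G9Gl*), and the part of shared reads in the values of *Ddit3* was not tested.

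*Atf3* (ENSMUSG00000026628) lies on chromosome 1 from 191170296 to 191218039, on the minus strand. It had 767, 716 and 700 normalized counts in WT, against 394, 404 and 382 in *E1E2 G9Gl* and 1162, 1169 and 1180 in *6KO1*. *E1E2 G9Gl* thus held the lowest *Atf3* libraries of the study and the highest *Ddit3* libraries. No change of *Atf3* against WT was called: the log2 fold change was -0.89 in *E1E2 G9Gl* (SE 0.10, adjusted p = 7.47e-08), 0.69 for *6KO1* (adjusted p = 1.12e-06), 0.56 for *6KO2* (adjusted p = 2.96e-05) and 0.49 for *E1E2* (adjusted p = 0.000281, all edgeR), and in *E1*, *E1 S1S2* and *E2* the adjusted p was 0.0131 or more. By mean level the order was *6KO1*, *6KO2*, *E1E2*, *E2*, *E1 S1S2*, WT, *E1* and *E1E2 G9Gl*. Libraries of neighbours overlapped between *6KO2* and *E1E2*, *E1E2* and *E2*, and *E2* and *E1 S1S2*, where the 3 *E2* libraries ranged from 805 to 1109.

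*Trib3* showed the largest change of the 8 genes against WT, a fall in *E1*. This pseudokinase gene (ENSMUSG00000032715), on chromosome 2 from 152337422 to 152344032 (minus strand), had 1095, 1079 and 1137 normalized counts in WT. There were 324, 310 and 353 in *E1*, 412, 458 and 396 in *E1E2*, and 532, 493 and 483 in *E1 S1S2*. Every library of these 3 conditions held less than every WT library, and the groups were far apart. *Trib3* fell to 0.299 of the WT level in *E1* (log2 fold change -1.74, SE 0.076, adjusted p = 2.93e-14), and it fell also in *E1E2* (-1.39, SE 0.075, adjusted p = 8.79e-13) and *E1 S1S2* (-1.13, SE 0.073, adjusted p = 9.94e-12, all edgeR). Without a call, *6KO2* held 654, 558 and 667 counts (-0.82, adjusted p = 1.5e-09, edgeR), *6KO1* held 935, 858 and 926 (-0.29, adjusted p = 0.00103, edgeR) and *E1E2 G9Gl* held 985, 955 and 955 (-0.19, adjusted p = 0.0202, edgeR). No mutant library reached the WT range. From high to low, the order was WT, *E2*, *E1E2 G9Gl*, *6KO1*, *6KO2*, *E1 S1S2*, *E1E2* and *E1*, and only *E2* and *E1E2 G9Gl* overlapped among neighbours.

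*Ppp1r15a* (GADD34, ENSMUSG00000040435), on chromosome 7 from 45522916 to 45526268 (minus strand), had 658 to 1410 normalized counts over all libraries. Its libraries held 1005 to 1154 counts in WT, 812 to 826 in *E1* and 658 to 710 in *E1E2 G9Gl*. Those 2 mutants lay below all other libraries. The change against WT was -0.69 for *E1E2 G9Gl* (SE 0.069, adjusted p = 6.81e-09), -0.41 for *E1* (SE 0.068, adjusted p = 7.58e-05) and 0.26 for *E2* (SE 0.067, adjusted p = 0.00403, all edgeR), and none was called. In the other 4 conditions the change lay between -0.10 and 0.15 with an adjusted p of 0.0423 or more (edgeR). Its exons overlap those of *Tulp2*, on the other strand, by 12 bases.

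Among the effector genes, *Asns* was lower than in WT in every condition after 4-OHT, as was *Atf4*. *Asns* (ENSMUSG00000029752, chromosome 6 from 7675169 to 7693254, minus strand) had 4517, 6038 and 4984 normalized counts in WT and 5908, 4986 and 5592 in *E2*. After 4-OHT every library lay below every WT library, from 2762 in *E1* to 4360 in *6KO2*. The change of *Asns* against WT was -0.81 for *E1* (SE 0.086, adjusted p = 1.68e-07), -0.71 for *E1E2 G9Gl* (adjusted p = 1.21e-07), -0.70 for *E1E2* (adjusted p = 5.88e-07), -0.58 for *E1 S1S2* (adjusted p = 5.05e-06), -0.44 for *6KO1* (adjusted p = 6.5e-05) and -0.35 for *6KO2* (adjusted p = 0.00109, all edgeR). None reached the fold change minimum, and *E2* did not differ from WT beyond the spread (0.085, adjusted p = 0.465, edgeR).

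*Chac1* fell in *E1* and was near or above the WT level in *E2* and *6KO1*. The gene (ENSMUSG00000027313, chromosome 2 from 119351229 to 119354381, plus strand) had 698, 628 and 683 normalized counts in WT, 281, 284 and 302 in *E1*, and 405, 442 and 394 in *E1E2*. The *6KO2* libraries held 460, 410 and 432, those of *E1E2 G9Gl* 539, 545 and 531, and those of *E1 S1S2* 542, 506 and 548. All of these lay below WT, whereas the *6KO1* libraries, with 712, 715 and 715, and the *E2* libraries, with 758, 816 and 854, lay above it. In *E1* it fell to 0.432 of the WT level (log2 fold change -1.21, SE 0.067, adjusted p = 2.23e-12, edgeR). Below the fold change minimum, *Chac1* differed from WT by -0.70 for *E1E2* (adjusted p = 1.04e-08), -0.62 for *6KO2* (adjusted p = 2.1e-08), -0.33 for *E1 S1S2* (adjusted p = 0.000134), -0.31 for *E1E2 G9Gl* (adjusted p = 0.000167) and 0.27 for *E2* (adjusted p = 0.00147, all edgeR), and for *6KO1* by 0.093 (adjusted p = 0.188, edgeR).

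*Sesn2* rose in *6KO1* and in no other mutant. This sestrin gene (ENSMUSG00000028893, chromosome 4 from 132492032 to 132510501, minus strand) had 882, 645 and 852 normalized counts in WT and 1751, 1557 and 1541 in *6KO1*. In *6KO2* it had 744, 729 and 706, inside the WT range. The lowest libraries were those of *E1*, with 458, 436 and 405, and of *E1E2 G9Gl*, with 442, 393 and 370, which overlapped each other. Its rise in *6KO1* was 1.03 on the log2 scale (SE 0.096, adjusted p = 1.63e-09), and the change of *Sesn2* for *E1E2 G9Gl* was -0.98 (SE 0.10, adjusted p = 1.45e-08) and for *E1* -0.87 (SE 0.10, adjusted p = 6.45e-07, all edgeR). The calls of this gene rest on single libraries: without WT replicate 2, its lowest WT library, the change was 0.90 in *6KO1*, which is not called, and it was called in *E1E2 G9Gl* (-1.11) and at the fold change minimum in *E1*. Without *6KO1* replicate 1 the rise in *6KO1* was 0.96 and was not called, and without *E1E2 G9Gl* replicate 1 the change there was -1.05 and was called. In *E1 S1S2* (-0.12), *6KO2* (-0.13), *E1E2* (0.053) and *E2* (0.23) *Sesn2* had an adjusted p of 0.0667 or more (edgeR).

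**Figure D2:**
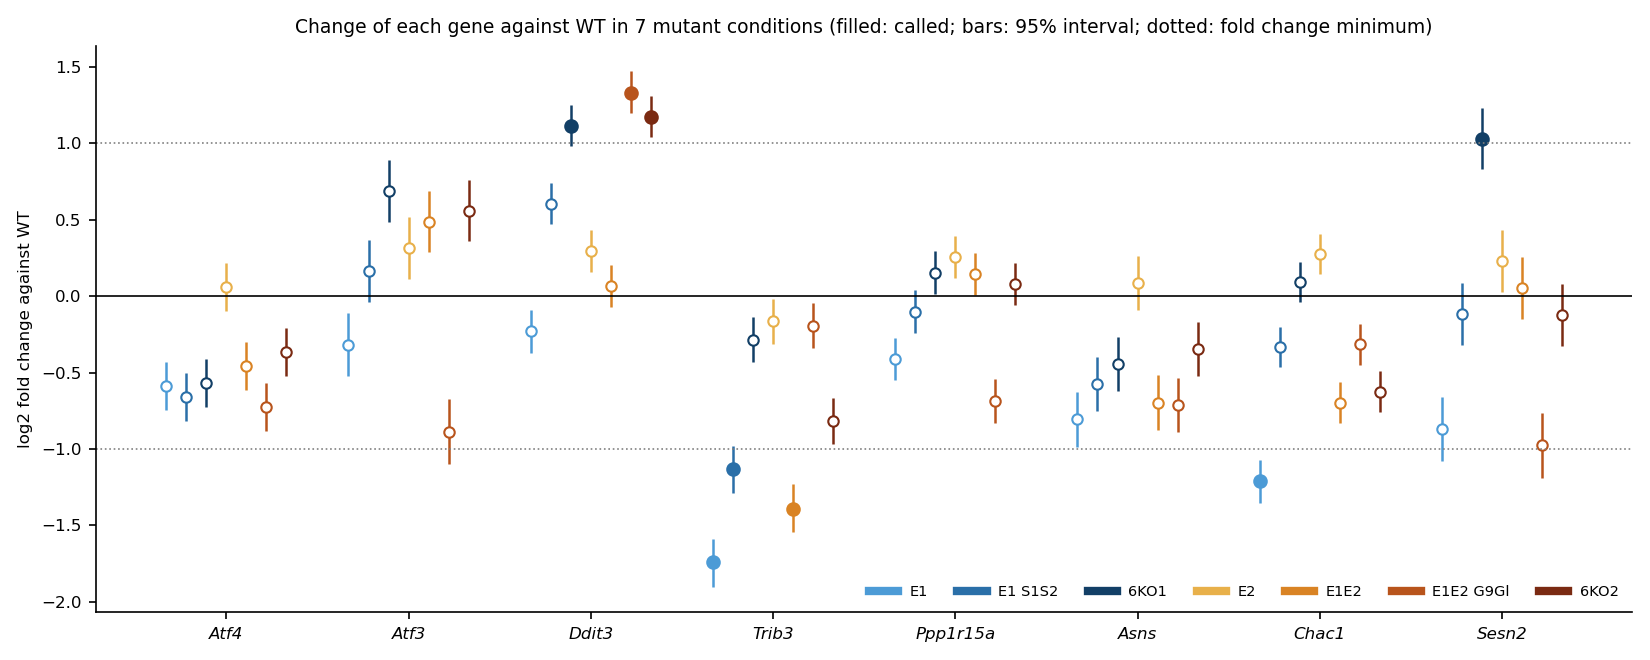
Log2 fold change against WT (vertical axis) of each gene (horizontal axis) in the 7 mutant conditions (colours). Bars are 95% intervals from the edgeR fit, filled points are called and dotted lines mark the fold change minimum. Called changes are falls of *Trib3* and *Chac1* and rises of *Ddit3* and *Sesn2*, while *Atf4* and *Asns* lie below 0 in every condition but *E2*.

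Read by condition, the response genes shared 1 sign against WT in *E1* only, and signs were mixed in every other mutant. In *E1* all 8 log2 fold changes were negative, with a median of -0.70 against -0.0053 over all genes, and for all 8 every *E1* library lay below every WT library, which holds for 12.9% of all genes tested. *Trib3* and *Chac1* fell and none rose, so 2 of 8 were called lower, against 1.99% of all genes called lower and 2.27% called higher. Without a fold change minimum, 6 of 8 passed the adjusted p limit (13.3% of all genes). In *E1E2*, 1 of 8 was called, lower (3.22% of all genes lower, 5.51% higher), and 5 of 8 passed the adjusted p limit (33.1%). The members split evenly in sign there, 4 positive and 4 negative, with *Atf3* among the former. In *E2*, which had no 4-OHT, edgeR and DESeq2 called 0 of 8 (2.9% of all genes higher, 3.21% lower). Of the 8 genes, 6 had an unadjusted p under 0.05 in *E2* and 3 passed the adjusted p limit (26.9% of all genes), namely *Ddit3*, *Ppp1r15a* and *Chac1*, all with higher values.

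In the compound mutants the direction depended on the gene. In *E1 S1S2*, 1 of 8 was called, lower (5.11% of all genes lower, 6.65% higher), and 5 of 8 passed the adjusted p limit (41.8%). In *6KO1*, *Ddit3* and *Sesn2* made 2 of 8 called higher, against 20.6% of all genes called higher and 10.2% lower, so this share is near the background. For all 8 the *6KO1* and WT libraries did not overlap, 5 above and 3 below, a separation that 71.8% of all genes showed, and 6 of 8 passed the adjusted p limit (66.3%). In *E1E2 G9Gl*, 1 of 8 was called, higher (16.8% of all genes higher, 8.41% lower), 7 of 8 passed the adjusted p limit (59.1%), and no gene overlapped WT (67.5% of all genes). There *Ddit3* alone lay above WT and the other 7 below, with a median of -0.70 against 0.0089 over all genes. The 1 of 8 called here and in *6KO2* is near or below these backgrounds. In *6KO2*, 1 of 8 was called, higher (15.3% of all genes higher, 5.39% lower), and 6 of 8 passed the adjusted p limit (54.5%). All 7 of these comparisons share the same WT libraries and are not independent of each other.

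The change across 4-OHT was compared on both backgrounds. In the *Eset2*-mutant clone, *E1E2* against *E2*, *Trib3* fell by 1.22 on the log2 scale (adjusted p = 8.58e-11, edgeR), the only call among the 8 (2.97% of all genes called in either direction). *Chac1* changed by -0.97 (adjusted p = 3.19e-10), *Asns* by -0.78 (adjusted p = 5.57e-07) and *Atf4* by -0.52 (adjusted p = 2.62e-05, all edgeR), each with all *E1E2* libraries below all *E2* libraries. The *Chac1* change passed the fold change minimum without *E2* replicate 1 (-1.01) or without *E1E2* replicate 2 (-1.02). The difference between the 4-OHT change in the *E2* clone and that in WT cells was tested directly, and edgeR and DESeq2 called 0 of 8 (3.43% of all genes called). Of the 8, 5 had an unadjusted p under 0.05, and 2 passed the adjusted p limit (8.88% of all genes). The fall of *Trib3* was smaller in the *E2* clone by 0.52 (SE 0.11, adjusted p = 0.00129) and the change of *Sesn2*, -0.87 in WT cells and -0.18 in the *E2* clone, by 0.69 (SE 0.14, adjusted p = 0.00114, both edgeR).

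**Figure D3:**
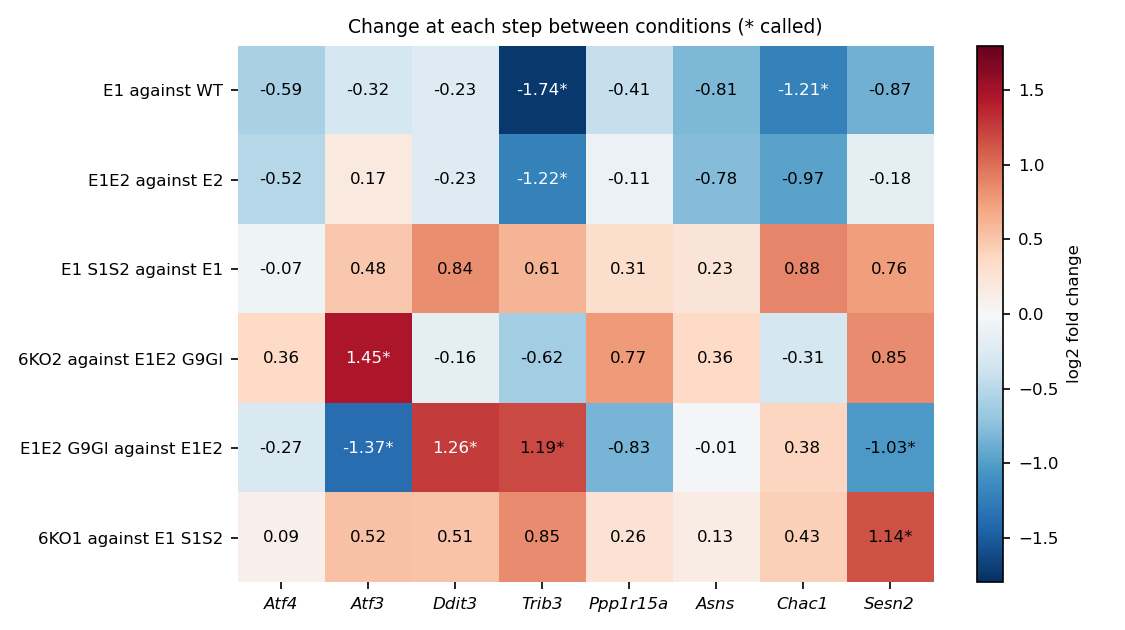
Log2 fold change of each gene (columns) at 6 steps between conditions (rows), with the colour scale at the right and an asterisk at called values. The *E1E2 G9Gl* against *E1E2* row holds 4 called values, 2 of each sign, and the *6KO1* against *E1 S1S2* row is positive throughout.

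Further steps of the design were read in the same way. From *E1* to *E1 S1S2*, which differ in *Suv39h1* and *Suv39h2*, 7 of 8 genes were higher with no overlap of libraries, which holds for 26.5% of all genes, led by *Chac1* (0.88, adjusted p = 3.32e-10), *Ddit3* (0.84, adjusted p = 4.96e-10) and *Sesn2* (0.76, adjusted p = 1.66e-06, all edgeR). None was called by edgeR or DESeq2 (8.06% of all genes called), although 7 had an unadjusted p under 0.05. Without a fold change minimum, 6 of 8 passed the adjusted p limit, as did 33.5% of all genes. From *E1 S1S2* to *6KO1*, all 8 genes had higher values in every *6KO1* library, as did 39.6% of all genes. *Sesn2* was called (1.14, SE 0.096, adjusted p = 4.64e-10, edgeR), 1 of 8 against 21.3% of all genes. *Trib3*, at 0.85 (adjusted p = 7.56e-10, edgeR), came next.

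The step from *E1E2* to *E1E2 G9Gl*, which adds the loss of *G9a* and *Glp*, split the genes. *Ddit3* rose by 1.26 (adjusted p = 5.59e-14) and *Trib3* by 1.19 (adjusted p = 2.48e-12), while *Atf3* fell by 1.37 (adjusted p = 5.2e-11) and *Sesn2* by 1.03 (adjusted p = 7.61e-09, all edgeR). These are 4 of 8 called, against 21.6% of all genes. *Sesn2* was not called with only genes above a mean of 100 (-0.99) or without *E1E2 G9Gl* replicate 3 (-0.97). *Ppp1r15a* changed by -0.83 (adjusted p = 3.27e-10, edgeR), with the same sign as *Atf3*, and *Asns* by -0.01 (adjusted p = 0.9, edgeR), a value whose sign turns under DESeq2 (0.014). From *E1E2 G9Gl* to *6KO2*, *Atf3* rose by 1.45 (SE 0.10, adjusted p = 4.27e-11, edgeR), the 1 call of 8 (16.3% of all genes). *Sesn2* (0.85, adjusted p = 2.82e-07) and *Ppp1r15a* (0.77, adjusted p = 2.52e-09) were higher too, and *Trib3* (-0.62, adjusted p = 1.82e-07, all edgeR) was lower. Both steps share the *E1E2 G9Gl* libraries, so their values are not independent.

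The loss of *Suv39h1* and *Suv39h2* was the added step both from *E1* to *E1 S1S2* and from *E1E2 G9Gl* to *6KO2*, and the difference between these changes was tested. *Trib3* (-1.23, SE 0.11, adjusted p = 1.82e-09) and *Chac1* (-1.19, SE 0.095, adjusted p = 4.42e-10, both edgeR) were called, 2 of 8 against 16.5% of all genes. Without a fold change minimum, 6 of 8 passed the adjusted p limit (39.2% of all genes). *Chac1* was higher by 0.88 at the first of these steps and lower, at -0.31, at the other. *Ddit3* differed by -0.99 (adjusted p = 4.22e-09, edgeR) and was called as well with DESeq2 (-1.03).

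The final lines, with the same 6 genes targeted in another order, differed in *Sesn2*. Its log2 fold change in *6KO2* against *6KO1* was -1.15 (SE 0.097, adjusted p = 6.61e-10, edgeR), the 1 call of 8 where 16.9% of all genes were called. *Chac1* (-0.72, adjusted p = 2.57e-09) and *Trib3* (-0.53, adjusted p = 1.47e-06, both edgeR) were also lower in *6KO2*. For *Ddit3* the difference was 0.061 with a 95% interval from -0.068 to 0.19, and for *Atf3* -0.13 with an interval from -0.325 to 0.070.

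Other genes of the pathway were read as lists, each by its calls against WT and its median log2 fold change. Of 13 genes of amino acid and one-carbon synthesis, none rose in any mutant. Called lower were 5 in *E1* (median -0.51, with 1.99% of all genes called lower), 5 in *E1E2 G9Gl* (-0.84, 8.41%), 4 each in *E1E2* (-0.72, 3.22%), *6KO1* (-0.80, 10.2%) and *E1 S1S2* (-0.79, 5.11%), 3 in *6KO2* (-0.80, 5.39%) and 0 in *E2* (-0.088, 3.21%). *Cth*, the enzyme that makes cysteine from cystathionine, fell in *E1* (-1.69) and *E1E2 G9Gl* (-3.25). Its normalized counts were 585 to 850 in WT, 205 to 227 in *E1* and 62.4 to 84.2 in *E1E2 G9Gl*. *Aldh1l2*, a mitochondrial folate enzyme, fell in *E1* (-1.91), and its counts of 881 to 1412 in the libraries after 4-OHT lay below the 3565 to 4383 in WT. Among 9 amino acid transporters none rose against WT, and 3 were called lower in *E1E2 G9Gl*, 2 each in *E1* and *E1E2*, 1 each in *6KO1* and *E1 S1S2*, and 0 in *E2* and *6KO2*, against these same shares of all genes. The 1 of 9 in *6KO1* is near its background of 10.2%. *Slc7a11*, the cystine importer subunit xCT, fell in *E1 S1S2* (-5.22), *E1* (-3.99), *E1E2 G9Gl* (-2.83), *6KO1* (-2.4) and *E1E2* (-1.01). Its counts were 380 to 463 in WT and 10.2 to 12.6 in *E1 S1S2*.

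Of 12 cytosolic aminoacyl-tRNA synthetase genes, 4 were called lower in *6KO1* (*Nars* -1.27, *Mars* -1.19, *Eprs* -1.14, *Tars* -1.13; 10.2% of all genes) and none in the other conditions. Upstream of *Atf4*, of the 4 eIF2alpha kinase genes only *Eif2ak2* (PKR, the double-stranded RNA sensor) was called, in *6KO1* (1.05, where 20.6% of all genes were called higher), with 3889 to 4103 normalized counts there and 1868 to 2044 in WT. Its libraries in *E1E2 G9Gl* (3735 to 3899) overlapped those in *6KO1*. Without a call, *E1E2* (3138 to 3342), *E1 S1S2* (2776 to 3000), *E1* (2188 to 2238) and *6KO2* (2062 to 2796) also lay above WT, and *E2* (2037 to 2802) overlapped it. Of 9 genes for eIF2, eIF2B and the constitutive phosphatase subunit, *Eif2s2* (-1.21), *Eif2b3* (-1.04) and *Eif2s1* (-1.02) fell in *6KO1* (10.2% of all genes called lower). *Eif2b3* (-1.04) fell in *E1E2 G9Gl*, where 1 of 9 is near the 8.41% of all genes called lower. Among WT libraries, each of these genes was highest in replicate 2, the library that stood apart. It held 9480 counts of *Eif2s1* against 5907 and 5869 in the other WT libraries. For *Eif2s2* it held 8378 against 5489 and 5660, and for *Eif2b3* 1777 against 1282 and 1281. These calls lie near the minimum and were not recomputed without that library. Among 9 tested bZIP partners and regulators, *Nupr1* fell in *E1* (-1.01, with 1.99% of all genes called lower). Its counts were 372, 500 and 395 in WT, highest in replicate 2, and this call at the minimum was not recomputed without that library. The *Nupr1* libraries of *E1* (172 to 238) overlapped those of *E1E2* (218 to 253), where it was not called. *Cebpd*, a C/EBP factor, rose in *E1E2* (3.07, with 5.51% of all genes called higher), *E2* (2.28, 2.9%), *6KO2* (2.05, 15.3%), *E1E2 G9Gl* (1.82, 16.8%) and *6KO1* (1.31, 20.6%). The 1 of 9 called higher in *6KO2*, *E1E2 G9Gl* and *6KO1* is near or below these shares. In *E2*, however, the *Cebpd* libraries ranged from 112 to 612 counts.

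The list of 15 stress effectors after ATF4 or CHOP moved in both directions. In *E1*, 3 were called lower (1.99% of all genes), namely *Vldlr* (-3.25), *Fgf21* (-2.32) and *Stc2* (-1.41), and none higher. *Vldlr*, a lipoprotein receptor gene, had 593 to 702 normalized counts in WT and 59.2 to 79.1 in *E1*. Higher and lower calls numbered 4 and 4 in *6KO1* (20.6% and 10.2% of all genes), 2 and 4 in *6KO2* (15.3% and 5.39%), 2 and 4 in *E1E2* (5.51% and 3.22%), 1 and 4 in *E1 S1S2* (6.65% and 5.11%), 1 and 6 in *E1E2 G9Gl* (16.8% and 8.41%), and 0 and 2 in *E2* (2.9% and 3.21%). The 4 of 15 higher in *6KO1* and the 2 of 15 higher in *6KO2* are near the background. *Gdf15*, a secreted stress cytokine, rose in *E1 S1S2* (3.8) and in *6KO1* (3.34), from 0 to 4.01 counts in WT to 27.2 to 33.3 and 20.2 to 22.5, which are low levels.

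The ER chaperone side of the unfolded protein response was read in 17 genes outside the eIF2alpha arm. In *E1E2 G9Gl* 11 of 17 were called higher (median 1.11; 16.8% of all genes were called higher), including *Sdf2l1* (2.53), *Dnajb9* (1.71), *Dnajb11* (1.39) and *Manf* (1.38). *Hspa5* (BiP), the main ER chaperone, had 63220 to 68040 normalized counts in *E1E2 G9Gl* and 24590 to 32650 in WT, with no overlap. Against *E1E2*, 12 of 17 were called higher (14.8% of all genes), and in *6KO2* against *E1E2 G9Gl* 10 were called lower (9.12% of all genes). In *6KO1* and *6KO2*, where *Ddit3* was also raised, 0 of 17 were called higher against WT (20.6% and 15.3% of all genes), and 2 and 0 were called lower (10.2% and 5.39%).

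Of 14 immediate early genes, which respond to serum and handling and include *Fos* and *Egr1*, the calls lower were 9 in *E1E2 G9Gl* (8.41% of all genes), 6 in *6KO2* (5.39%), 5 in *6KO1* (10.2%), 5 in *E1 S1S2* (5.11%), 4 in *E1E2* (3.22%), 3 in *E1* (1.99%) and 3 in *E2* (3.21%). The calls higher were 2 each in *6KO1* (20.6% of all genes), *6KO2* (15.3%) and *E1E2* (5.51%), and 0 in *E1E2 G9Gl* (16.8%), *E1 S1S2* (6.65%), *E1* (2.27%) and *E2* (2.9%). In *E1E2 G9Gl* their median was -1.17, beside the low *Atf3* there, and their part in the result was not tested. Markers of other cell types also moved with some conditions. The 4 endothelial markers summed to 11.9 to 14.9 normalized counts in WT, 121 to 140 in *6KO1*, 100.3 to 138 in *6KO2*, 67.4 to 87.9 in *E1E2 G9Gl*, and between 8.07 and 37.6 in the other mutants. The 5 haematopoietic markers summed to 157 to 172 in WT, 585 to 637 in *6KO1* and between 119 and 242 in the other mutants, with *Adgre1* at 0 in every library and *Ptprc* at 0 in every WT library at 14.7 to 16.5 in *6KO1* and at 45.3 to 50.5 in *E1E2 G9Gl*. The 5 epithelial markers summed to 30.9 to 50.2 in WT and to more in every mutant, with 423 to 451 in *6KO1*, 255 to 314 in *E1 S1S2*, 218 to 283 in *E2*, 194 to 207 in *E1E2 G9Gl*, 131 to 167 in *E1*, 122 to 178 in *E1E2* and 98.3 to 112 in *6KO2*. Most of these counts were of *Krt8* (18.1 to 31.1 in WT and 412 to 436 in *6KO1*), and *Krt5* was at 0 in every WT library. The 10 fibroblast markers summed to 167400 to 212900 in WT, 93180 to 105600 in *6KO1* and 214100 to 232600 in *E1E2 G9Gl*, above WT, and to between 139700 and 179300 in the other mutants. These sums are weighted to abundant markers. Of the 9 tested, 5 were called lower and 0 higher in *6KO1* (median -1.48), against 10.2% of all genes lower and 20.6% higher. In *E1E2 G9Gl* 2 were called higher and 2 lower (median -0.039), so the higher sum there does not hold for each marker. Of all genes, 16.8% were called higher there and 8.41% lower, so the 2 of 9 called higher are near the background. The part of these cell type markers in the changes of the 8 genes was not tested, and in bulk RNA fewer cells that express a gene and less RNA per cell cannot be told apart.

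**Figure D4:**
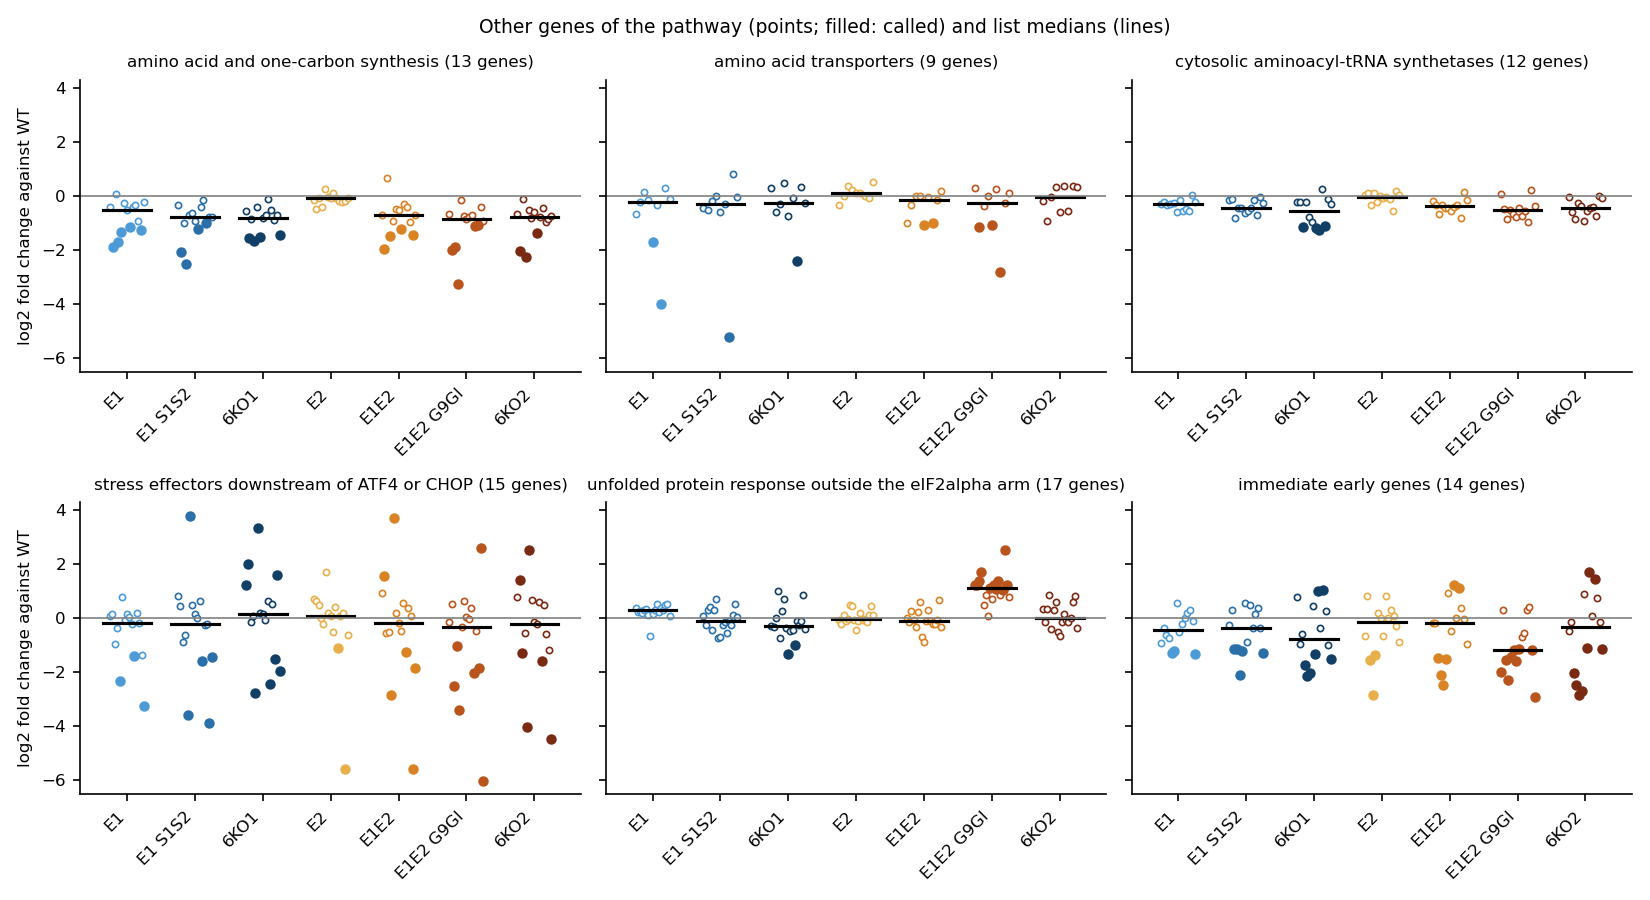
Log2 fold change against WT (vertical axis) of the genes of 6 lists in the 7 mutant conditions (horizontal axis). Each point is a gene, filled where called, and black lines are list medians. The median of the synthesis genes lies between -0.84 and -0.51 in the conditions after 4-OHT and at -0.088 in *E2*, and that of the unfolded protein response genes is 1.11 in *E1E2 G9Gl*, where 11 of 17 are called.

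For the 4 genes called against WT, likeness was measured as the root mean square difference of the 7 log2 fold changes against WT, over all genes tested. The nearest profiles to *Ddit3* were *Gm13483* (0.16) and *Gtpbp2* (0.17), whereas its nearest among the 8 genes was *Atf3*, at 0.91. *Trib3* was nearest to *Rab3il1* and *Acot2* (0.24 each) and, among the 8, to *Chac1* (0.51). *Chac1* was nearest to *Slc25a35* and *Nupr1* (0.25 each) and to *Asns* (0.33). *Sesn2* was nearest to *Ass1* (0.22) and *Gm5424* (0.24), a pair that may share reads and is uncertain, and to *Ppp1r15a* (0.40). These distances share the WT libraries and are given as a description.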

How the data were processed

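RNA from 24 MEF cultures, 3 biological replicates in each of 8 conditions, was sequenced from stranded total RNA libraries. The authors trimmed paired reads with cutadapt 1.8.1, aligned them to GRCm38 with STAR 2.5.2b, quantified genes and repeats with TEtranscripts, and deposited whole-number counts without normalization. The table holds 47937 genes, 1445 repeat elements and 1 malformed row that was left out, and 0 columns were without a sample. Symbols were found for 47224 gene identifiers, and coordinates and exon overlaps were read from GENCODE for GRCm38. Conditions were taken from the titles and the study's methods, since the treatment field names 4-OHT for all samples.

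Genes with low counts were removed with filterByExpr by condition. The quasi-likelihood test of edgeR 4.0.16 was used (R 4.3.3, with limma 3.58.1; prior degrees of freedom 6.33), with TMM factors from genes and 1 coefficient per condition, in 13 comparisons and 2 tests of differences between changes. Standard errors were derived from the test statistic. Precision was set by 3 replicates per condition at 19541909 to 31489070 gene counts per library. The steps were tested on simulated data with known changes. The 8 genes, the lists, the motifs and the rule for named genes (all 8, up to 4 called genes per list and comparison with the largest change or needed to say what a list holds, and the nearest profiles) were chosen with earlier results of these data known. The alternatives tried were RLE factors, DESeq2 1.42.0 with size factors of its own, factors from genes and repeats together, no filter on low counts, a minimum mean normalized count of 100, an adjusted p of at most 0.05, no fold change minimum, a replicate block, only the libraries compared, and each library left out in turn. Genes of the lists were not read under these alternatives. Figures were drawn with matplotlib 3.10.9.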

Additional observations from a re-analysis of the deposited data

Results flagged for a closer look

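The change across 4-OHT differed between the *E2* clone and WT cells, at an adjusted p of at most 0.01 (edgeR, test of the difference itself), for *Trib3* by 0.52 (adjusted p = 0.00129) and for *Sesn2* by 0.694 (adjusted p = 0.00114). *Trib3* was lower after 4-OHT in every library of both backgrounds, with log2 fold changes of -1.74 in WT cells and -1.22 in the *E2* clone. Neither difference reached the fold change minimum, and 8.88% of all genes passed the same adjusted p limit.

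The change at the added loss of *Suv39h1* and *Suv39h2* differed between the *E1E2 G9Gl* and the *E1* background (edgeR, test of the difference itself) for 6 of the 8 genes, at an adjusted p of at most 0.01 that 39.2% of all genes passed. The differences were -1.23 for *Trib3* (adjusted p = 1.82e-09), -1.19 for *Chac1* (adjusted p = 4.42e-10), -0.991 for *Ddit3* (adjusted p = 4.22e-09), 0.963 for *Atf3* (adjusted p = 5.5e-06), 0.456 for *Ppp1r15a* (adjusted p = 0.000403) and 0.433 for *Atf4* (adjusted p = 0.00168). *Trib3*, *Chac1* and *Ddit3* were higher at this step on the *E1* background in every library and lower on the *E1E2 G9Gl* background in every library. Each background is 1 clone on either side of the step, so the backgrounds and the clones cannot be told apart.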

How the results depend on the processing

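Of 235 recomputed counts of called genes, 210 stayed within 1.5 times the main count, as did every count under DESeq2, RLE factors, an adjusted p of 0.05, only the libraries compared and the replicate block. With factors from genes and repeats together, 1 gene was called in *6KO1* and 2 in *E1E2 G9Gl* against WT, and with no filter on low counts 1 was called in *6KO1*. Both *6KO1* losses are *Sesn2* (0.98 and 0.996), as is the *E1E2 G9Gl* gain (-1.01). With no fold change minimum, 7 genes passed in *E1E2 G9Gl*, 6 each in *E1*, *6KO1* and *6KO2*, 5 each in *E1E2* and *E1 S1S2* and 3 in *E2* against WT, 4 in *E1E2* against *E2*, 6 in *E1 S1S2* against *E1*, 6 in *6KO1* against *E1 S1S2*, 7 in *E1E2 G9Gl* against *E1E2*, 7 in *6KO2* against *E1E2 G9Gl*, 3 in *6KO2* against *6KO1*, 2 in the 4-OHT difference and 6 in the *Suv39h1* *Suv39h2* difference. Of all genes, 13.3% (*E1*) to 66.3% (*6KO1*) passed against WT, 11.9% to 53.4% at the other steps, and 8.88% and 39.2% for these differences. Leaving out 1 library gave 1 to 2 called in *6KO1* against WT, 1 to 2 in *E1E2 G9Gl* against WT, 1 to 2 in *E1E2* against *E2*, 2 to 3 in *E1* against WT, 3 to 4 in *E1E2 G9Gl* against *E1E2* and 2 to 4 in the *Suv39h1* *Suv39h2* difference, where *Atf3* (1 without *E1 S1S2* replicate 1) and *Ddit3* (-1.03) passed the minimum. *Ddit3* passed it there also with DESeq2 (-1.03), RLE factors (-1.03), no filter (-1.01) or a mean above 100 (-1.05). Of the single values given, those near 0 turned sign: *Asns* in *E1E2 G9Gl* against *E1E2* under DESeq2 (0.0136), RLE factors (0.0129), a mean above 100 (0.0262) and over left-out libraries (-0.0318 to 0.0163), and, over left-out libraries, *Atf4* (-0.0253 to 0.145) and *Asns* (-0.00507 to 0.209) in *E2* and *Sesn2* in *E1E2* (-0.078 to 0.136). The cause was not tested. Replicate numbers were not treated as pairs. Deviations of same-numbered libraries correlated between -0.291 and 0.24. In *E1E2* against *E2* the same-numbered library was the best match for all 3, at correlations of only 0.00727 to 0.0577. The replicate block left 2 of the 8 genes called in *E1* and moved the calls over all genes there from 790 to 771. With at least 286 counts of each gene in each library, the calls that turned with the minimum of 1 kept were those of log2 fold changes from -0.871 to -1.03 and from 0.963 to 1.03.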
